A study of Mus musculus with 9 samples.

Results

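The 7 genes described here encode the transcriptional end of the Hippo pathway: the coactivators Yap1 (YAP) and Wwtr1 (TAZ), the DNA-binding factors Tead1, Tead2, Tead3 and Tead4, and Vgll4, a vestigial-like protein that binds TEADs in competition with YAP. They were chosen by name from the 21676 genes of the deposited tables. All 7 were listed, and all 7 passed the filter on low counts that left 13807 genes for testing.

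Libraries of total RNA came from cultured B16 cells, a melanoma line of the mouse, that carried a control hairpin, the hairpin shAD4-1 or the hairpin shAD4-2, with 3 libraries a group. The title names ADGRL4, a receptor of the adhesion GPCR family, together with Gαs and YAP1 signalling, dormancy and angiogenesis, and the design text calls the hairpin lines knockdown derivatives of the control cells. No age, treatment or time point is given, the labels do not say whether a line was a clone, and the level of Adgrl4 itself is not analysed here, which leaves the knockdown unmeasured.

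In the Hippo pathway the kinases MST and LATS phosphorylate YAP and TAZ, which are then held in the cytoplasm or degraded. Unphosphorylated YAP and TAZ enter the nucleus and, having no DNA-binding domain, act through TEAD factors on genes such as Ccn1, Ccn2 and Ankrd1. Signalling through Gαs and cyclic AMP is known to raise LATS activity toward YAP. Much of this control acts on the proteins, which RNA counts do not measure. In melanoma YAP and TAZ are known for roles in invasion and drug resistance.

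Libraries held 31.3 to 36.9 M counted reads. Melanocyte markers summed to 11066 to 12684 CPM (reads scaled to library size with TMM factors) in control, 9882 to 10095 with shAD4-1 and 10718 to 11717 with shAD4-2, with none of the 7 at 0. All 7 fell with shAD4-1, and 2 rose and 2 fell with shAD4-2. The 4 immune markers in the table summed to 3.02 to 3.45 CPM in control, 4.37 to 4.79 with shAD4-1 and 3.45 to 4.37 with shAD4-2, with Ptprc at 0 in 8 of 9 libraries. Of these Cd68, a macrophage marker, rose with shAD4-1 (log2 fold change 0.53; edgeR adjusted p = 0.0048) and was not called with shAD4-2 (0.27; edgeR adjusted p = 0.127). The 3 endothelial markers in the table reached 0.283 CPM and the keratinocyte marker Krt10 0.107 CPM. The 4 fibroblast markers in the table summed to 5.08 to 7.10 CPM in control, 10.4 to 12.2 with shAD4-1 and 12.4 to 14.0 with shAD4-2. Of these Col1a1 and Col1a2 rose with both hairpins, Pdgfra was called with neither and Lum was at 0 in 8 of 9 libraries. The 13 mitochondrially encoded genes took 2.45 ± 0.16% of reads in control, 3.74 ± 0.10% with shAD4-1 and 3.72 ± 0.15% with shAD4-2 (SD, n = 3). The fibroblast-marker and mitochondrial shifts moved with both comparisons against control given below, and the melanocyte and immune marker sums with that of shAD4-1. Their part in those results was not tested. Among the controls, replicate 1 differed most (chi-square per degree of freedom 11.8 and 17.1 against 3.37 for the other pair). In bulk RNA, fewer cells with a transcript and less of it per cell cannot be told apart.

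Promoter sequences were matched by symbol for 5 of the 7 genes in a RefSeq table of build GRCm38.p6, and Tead1 and Tead4 had no entry. The stretches shown are the 250 bases before the start of Yap1, Wwtr1 and Vgll4, 3 of the genes called with both hairpins. Wwtr1 has 2 annotated starts, and the window of the farther upstream one is shown. The windows shown hold no annotated exon of their gene. The capitals mark the hexamer GGAATG, the core letters known to be bound by TEAD factors, which was searched on both strands (CATTCC on the other).
Yap1, chr9:8004597-8004846, minus strand: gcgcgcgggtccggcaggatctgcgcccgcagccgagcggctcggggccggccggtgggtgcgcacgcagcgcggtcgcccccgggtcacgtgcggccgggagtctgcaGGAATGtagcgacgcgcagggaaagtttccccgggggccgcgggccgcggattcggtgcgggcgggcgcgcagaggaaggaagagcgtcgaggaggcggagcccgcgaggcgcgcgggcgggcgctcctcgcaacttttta
Wwtr1, chr3:57575911-57576160, minus strand: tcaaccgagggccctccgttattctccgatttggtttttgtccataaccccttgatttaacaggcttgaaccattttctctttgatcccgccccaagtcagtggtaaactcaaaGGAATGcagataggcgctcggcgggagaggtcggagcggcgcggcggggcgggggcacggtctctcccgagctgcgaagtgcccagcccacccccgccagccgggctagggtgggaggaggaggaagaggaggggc
Vgll4, chr6:114969204-114969453, minus strand: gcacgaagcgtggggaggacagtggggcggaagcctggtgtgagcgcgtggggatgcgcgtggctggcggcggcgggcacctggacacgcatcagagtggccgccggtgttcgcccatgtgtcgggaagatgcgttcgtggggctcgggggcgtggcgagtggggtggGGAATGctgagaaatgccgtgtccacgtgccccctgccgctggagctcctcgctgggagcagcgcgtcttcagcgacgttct
The hexamer begins 141 bases before the start of Yap1, 136 before the upstream start of Wwtr1 and 82 before that of Vgll4. Before the other start of Wwtr1, whose window holds 34 exonic bases, it lies at 170 bases. Tead3, with 3 annotated starts, held 1 match in its farthest upstream window, which has 12 exonic bases. The next window held 2 matches, but 217 of its 250 bases are exonic. The third, with all 250 bases exonic, held none. Tead2 held none. Of all 27025 genes with a listed promoter, 14.4% held the hexamer in at least 1 such window, and 12.6% of all windows did. A match is a description of letters and was not tested for binding.

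The comparison of each hairpin with control asked whether the transcripts of YAP, its paralogue and their DNA-binding partners changed with the hairpin. With shAD4-1, 6 of the 7 genes were called, 5 higher and 1 lower. In edgeR 65% of all tested genes were called in that comparison at an adjusted p of 0.05, 32.7% higher and 32.3% lower. With shAD4-2, 5 genes were called, 4 higher and 1 lower, where 69% of all tested genes were called, 34.2% higher and 34.8% lower. Yap1, Wwtr1, Tead2 and Tead4 were higher and Vgll4 lower with both hairpins, 5 of 7, where 55.6% of all tested genes were called in the same direction with both (28.1% higher and 27.6% lower). The 2 comparisons share the 3 control libraries. The changes themselves were of common size: only that of Tead4 was larger than the median of called genes in both comparisons, 0.46 and 0.50 as absolute log2 fold changes. The libraries of the 2 groups did not overlap in 6 of 7 genes with shAD4-1 (68% of all tested genes) and in 5 with shAD4-2 (70.6%).

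**Figure D1:**
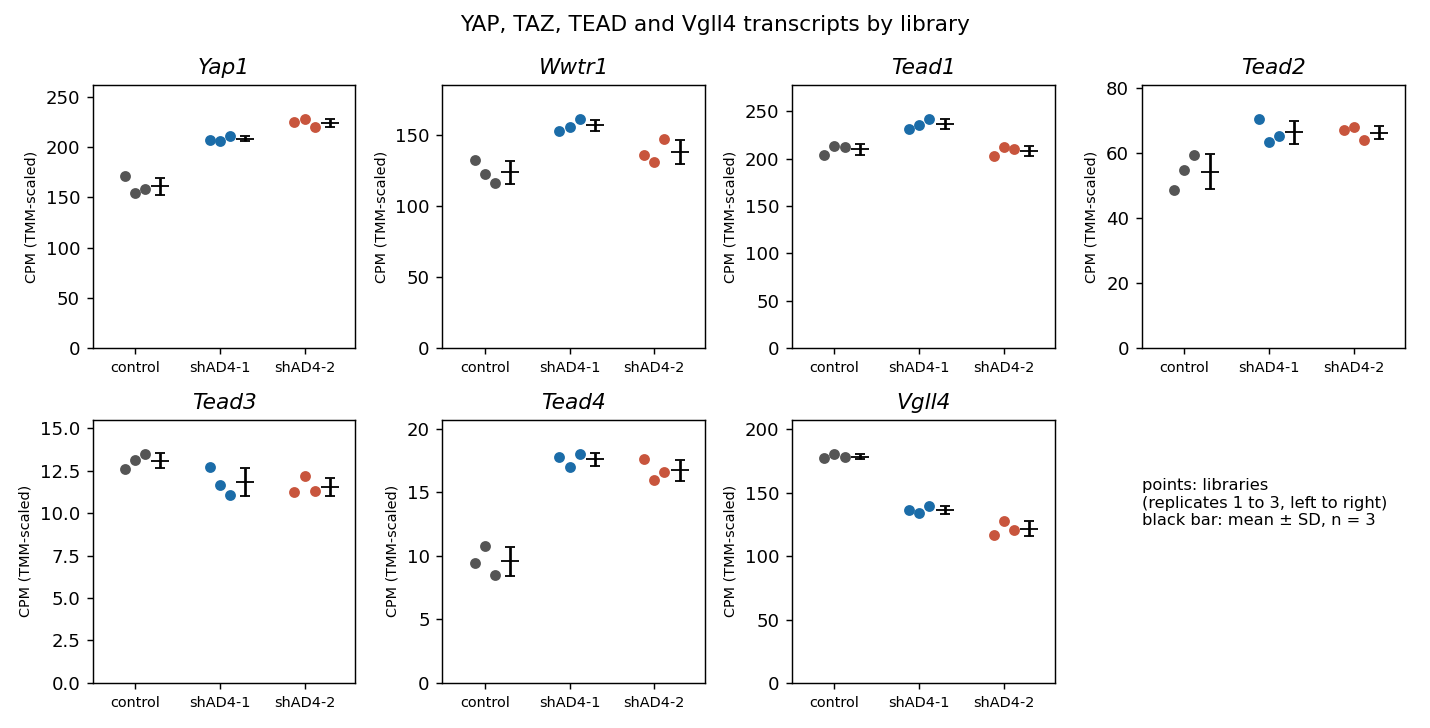
Reads scaled to library size (CPM with TMM factors, linear axes from 0) of each gene in the 9 libraries, with mean ± SD (n = 3) in black. Yap1 and Tead4 sit above control and Vgll4 below it in all 6 hairpin libraries, while Tead1 is raised in the shAD4-1 libraries only.

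Yap1, the coactivator named in the series title, stood at 171, 155 and 158 CPM in control replicates 1 to 3, at 207, 206 and 211 CPM with shAD4-1 and at 225, 228 and 220.5 CPM with shAD4-2. All 6 hairpin libraries lay above all controls, and the shAD4-2 libraries above those of shAD4-1. Yap1 rose 1.29-fold with shAD4-1 (log2 fold change 0.37, SE 0.04; edgeR adjusted p = 2.2e-07) and 1.39-fold with shAD4-2 (0.48, SE 0.04; edgeR adjusted p = 5.82e-09). The difference between the hairpins, 0.11 on the log2 scale with a 95% interval of 0.02 to 0.19, missed the threshold (edgeR adjusted p = 0.0539). That call turned with 5 other settings, among them leaving out control replicate 1 (adjusted p = 0.00484) and DESeq2 (0.0294). The gene Gm20416 overlaps exons of Yap1 in GENCODE M21 and is not analysed here.

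Wwtr1, the TAZ gene, stood at 132, 122 and 116 CPM in control, at 153, 156 and 161 CPM with shAD4-1 and at 136, 130.4 and 147 CPM with shAD4-2. The shAD4-1 libraries lay above all others, whereas shAD4-2 replicate 2 lay below control replicate 1. The rise was 1.27-fold with shAD4-1 (log2 fold change 0.34, SE 0.05; edgeR adjusted p = 9.33e-06) and 1.12-fold with shAD4-2 (0.16, SE 0.05; edgeR adjusted p = 0.00993). With shAD4-2 it did not pass in limma on log2(FPKM + 1) (adjusted p = 0.136). Wwtr1 was lower with shAD4-2 than with shAD4-1 (-0.18, SE 0.05; edgeR adjusted p = 0.0109), a call lost without shAD4-1 replicate 3 (adjusted p = 0.0541) or without shAD4-2 replicate 2 (0.0748).

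The balance of the paralogues can be read within each library as a ratio of FPKM, the authors' values scaled to library total and gene length. Yap1 stood at 1.40 ± 0.05 times Wwtr1 in control, 1.42 ± 0.02 with shAD4-1 and 1.75 ± 0.13 with shAD4-2 (SD, n = 3). All shAD4-2 libraries, at 1.60 to 1.87, lay above the other 6, at 1.35 to 1.46. By a two-sided exact permutation test p was 0.1 for shAD4-2 against either group, the smallest value that 3 against 3 libraries allow, and p = 0.5 for shAD4-1 against control. In all, 27 such comparisons of ratios, sums and shares were made, 18 of them reached that smallest p, and none could pass a threshold of 0.05 before or after adjustment.

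Tead1 and Tead2 made up most of the TEAD transcripts. Tead1 stood at 203, 213 and 212 CPM in control, at 231, 236 and 242 CPM with shAD4-1 and at 203, 212 and 210.4 CPM with shAD4-2. Its shAD4-1 libraries lay above the other 6, and those of shAD4-2 overlapped the controls. It rose 1.13-fold with shAD4-1 (log2 fold change 0.17, SE 0.04; edgeR adjusted p = 0.000509). With shAD4-2 the log2 difference from control was -0.01, with a 95% interval of -0.09 to 0.07 (edgeR adjusted p = 0.833). The overlap rests on the scaling. In FPKM, which do not use the TMM factors, the shAD4-2 libraries, at 20.18 to 21.13, lay below the controls, at 21.18 to 22.01. Tead1 was not called there either (-0.06, adjusted p = 0.117 by limma on log2(FPKM + 1)). The hairpins differed in Tead1 (-0.18, SE 0.04; edgeR adjusted p = 0.00142).

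Tead2, a TEAD known from early development, stood at 48.6, 54.8 and 59.3 CPM in control, at 70.3, 63.5 and 65.2 CPM with shAD4-1 and at 66.9, 67.9 and 63.8 CPM with shAD4-2. All 6 hairpin libraries lay above all controls. The rise was 1.22-fold with either hairpin (log2 fold changes 0.29 and 0.29, SE 0.06 each; edgeR adjusted p = 0.000549 and 0.000557). Between the hairpins the log2 difference was -0.0022, with a 95% interval of -0.13 to 0.13 (edgeR adjusted p = 0.985). An exon of Cd37 overlaps Tead2 in GENCODE M21, and Cd37 held 17 to 28 reads per library against 1578 to 2548 of Tead2.

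Tead3, a factor prominent in placenta, was among the low members, at 12.6, 13.1 and 13.5 CPM in control, 12.7, 11.7 and 11.1 with shAD4-1 and 11.2, 12.2 and 11.3 with shAD4-2. It was called in neither comparison with control. The log2 differences were -0.15 (95% interval -0.33 to 0.04; edgeR adjusted p = 0.146) and -0.18 (-0.36 to 0.0039; edgeR adjusted p = 0.0759). The shAD4-2 libraries nevertheless lay below all controls, and limma on log2(FPKM + 1), which does not use the TMM factors, called Tead3 lower with both (adjusted p = 0.0256 and 0.013).

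Tead4, the TEAD required for trophectoderm in the early embryo, showed the largest change of the 7 genes with either hairpin. It stood at 9.48, 10.8 and 8.50 CPM in control (308 to 380 reads), at 17.8, 17.0 and 18.0 CPM with shAD4-1 and at 17.7, 16.01 and 16.6 CPM with shAD4-2. The lowest hairpin library was well above the highest control. The rise was 1.84-fold with shAD4-1 (log2 fold change 0.88, SE 0.09; edgeR adjusted p = 9.84e-08) and 1.75-fold with shAD4-2 (0.81, SE 0.09; edgeR adjusted p = 2.86e-07). Of all tested genes 15.8% and 21.6% had a larger absolute change. Between the hairpins the difference was -0.07 (95% interval -0.25 to 0.11; edgeR adjusted p = 0.589).

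Per length, the order of Tead3 and Tead4 was the reverse in the hairpin cells of that in control. Tead4 stood at 0.72 ± 0.09 times the FPKM of Tead3 in control (0.616 to 0.800 over the libraries), at 1.46 ± 0.11 in shAD4-1 (1.37 to 1.59) and at 1.42 ± 0.13 with shAD4-2 (1.29 to 1.54), a ratio chosen after its values were seen (exact permutation p = 0.1 for either hairpin). The summed TEAD level was 53.0 ± 2.74 FPKM in control, 60.7 ± 1.57 with shAD4-1 and 57.6 ± 0.97 with shAD4-2, with no overlap between the groups (exact permutation p = 0.1 for each pair). Tead4 supplied 6.05 ± 0.81% of that sum in control, 9.29 ± 0.20% with shAD4-1 and 9.33 ± 0.55% with shAD4-2, while Tead3 supplied 8.44 ± 0.21%, 6.38 ± 0.36% and 6.59 ± 0.20% in that order. Tead1 went from 41.1 ± 1.30% to 38.7 ± 1.54% and 36.0 ± 0.94%, and Tead2 stood at 44.5 ± 2.10%, 45.6 ± 1.38% and 48.1 ± 0.83%. The larger part of the TEAD transcripts was thus Tead1 and Tead2 in each group. Summed Yap1 and Wwtr1 stood at 1.20 ± 0.14, 1.29 ± 0.04 and 1.35 ± 0.04 times the summed TEADs, and the controls overlapped both hairpin groups.

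**Figure D2:**
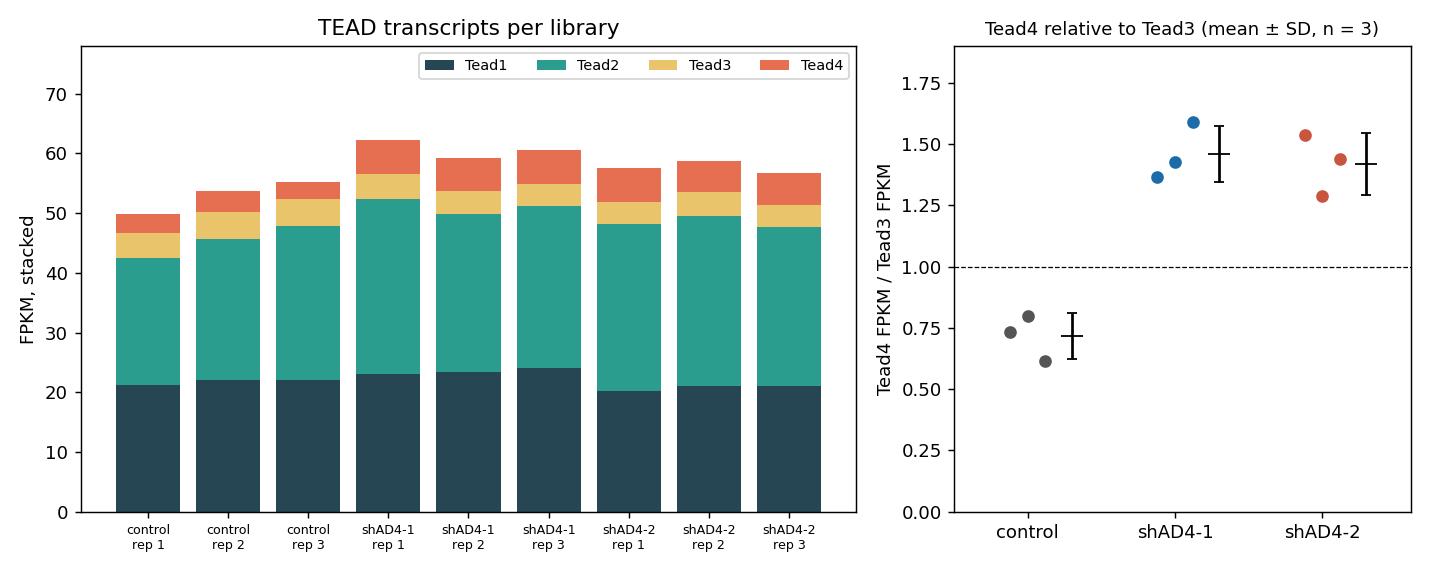
Left, FPKM of Tead1 to Tead4 stacked for each library (bars from 0). Right, the ratio of Tead4 to Tead3 FPKM by library with mean ± SD (n = 3): the controls lie at 0.616 to 0.800 and the hairpin libraries at 1.29 to 1.59, on the other side of the dashed line at 1.

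Vgll4 was the only one of the 7 genes called lower against control in edgeR, and it fell with both hairpins. It stood at 177, 181 and 178 CPM in control, at 136, 134 and 140 CPM with shAD4-1 and at 116, 128 and 121 CPM with shAD4-2. The 3 groups did not overlap. The log2 fold change was -0.39 with shAD4-1 (SE 0.04; edgeR adjusted p = 1.27e-07) and -0.55 with shAD4-2 (SE 0.04; edgeR adjusted p = 8.48e-10), to 0.765 and 0.681 of control. It was also lower with shAD4-2 than with shAD4-1 (-0.17, SE 0.04; edgeR adjusted p = 0.00523). The ratio of Yap1 to Vgll4, chosen after the values were seen, was 1.69 times that of control with shAD4-1 and 2.05 times with shAD4-2, a fold that does not depend on gene length, and the 3 groups did not overlap (exact permutation p = 0.1 for each pair).

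In the comparison of the hairpins with each other, 3 of the 7 genes were called, all lower with shAD4-2: Wwtr1, Tead1 and Vgll4. Over all tested genes 27.4% were called, 13.4% higher and 14% lower, and the libraries of the groups did not overlap in 4 of the 7 genes against 44.5% of all. Yap1, at 0.11 higher, was the gene without overlap that was not called.

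**Figure D3:**
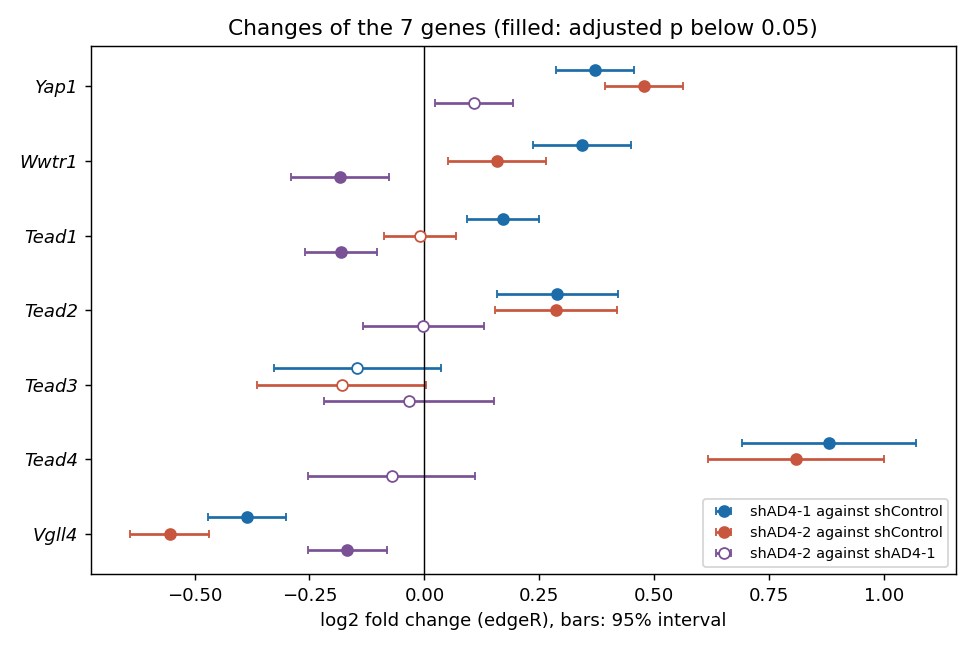
Log2 fold changes of the 7 genes in the 3 comparisons, with 95% intervals from edgeR; filled points have an adjusted p below 0.05. Tead4 lies at 0.88 and 0.81, Vgll4 at -0.39 and -0.55, and the differences between the hairpins are all within 0.19 of 0.

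Levels of different genes were set side by side per length. In control the deposited FPKM were 36.9 ± 2.15 for Yap1, 26.5 ± 1.85 for Wwtr1, 23.6 ± 2.28 for Tead2, 21.7 ± 0.48 for Tead1, 12.4 ± 0.08 for Vgll4, 4.47 ± 0.14 for Tead3 and 3.20 ± 0.37 for Tead4 (SD, n = 3). Wwtr1 overlapped Tead2 and Tead2 overlapped Tead1, and the other neighbours in that order did not overlap. Yap1 was above 86.0% of tested genes in control, 89.7% with shAD4-1 and 90.3% with shAD4-2, and Tead4 above 34.2%, 45.9% and 44.9%. In both hairpin groups Tead4 stood before Tead3, and with shAD4-2 Wwtr1 still overlapped Tead2.

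The place of Vgll4 in that order rests on the length used. The length implied by its counts and FPKM is 14816 bases, 7.31 times its longest coding transcript in GENCODE M21, 2028 bases. For the other 6 genes this quotient was 0.695 (Tead2) to 1.08 (Tead3). Divided by the longest coding transcript instead, a choice made after that length was seen, Vgll4 stood at 90.4 ± 0.55 in control, 66.4 ± 1.49 with shAD4-1 and 59.2 ± 2.83 with shAD4-2, above Yap1 at 39.7 ± 2.31, 49.2 ± 0.58 and 53.1 ± 0.87, and Tead2, at 16.4 ± 1.58 in control, came after Tead1, at 21.6 ± 0.47. The union of the annotated exons of Vgll4, 5396 bases, lies between 2028 and 14816 bases and was not tried as length. Whether Vgll4 is above or below Yap1 is therefore not settled by the deposited values. Fold changes of single genes between groups do not depend on the length. The implied length of Vgll4 exceeds even that union, and which sequence its counted reads cover was not checked. Its fold changes rest on the same reads.

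**Figure D4:**
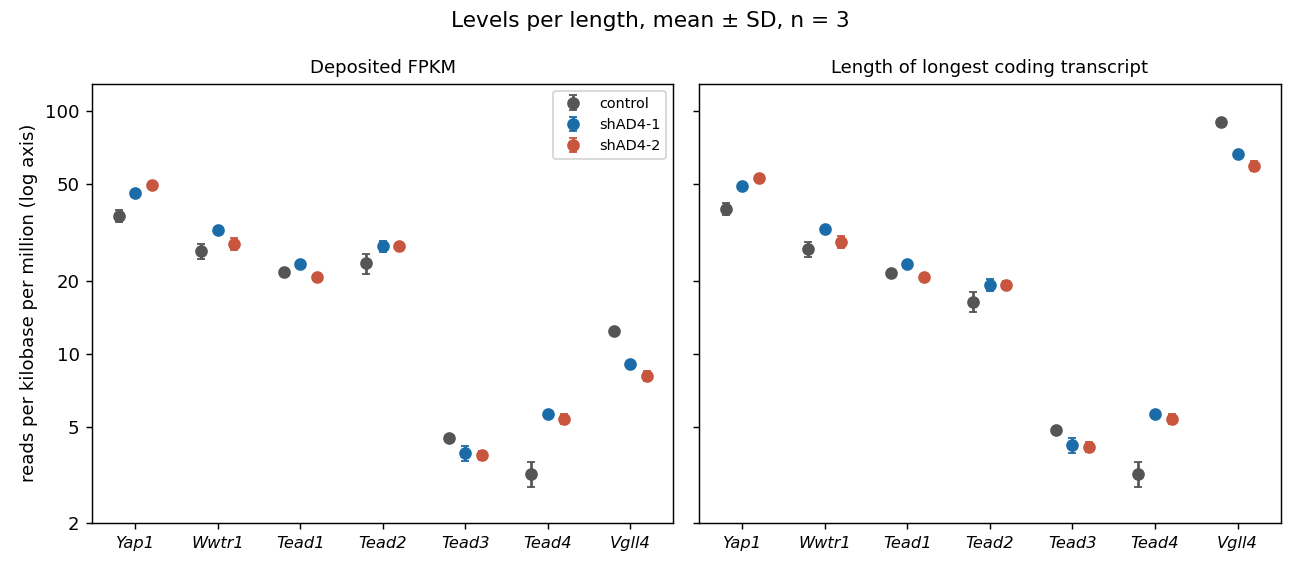
Level per length of each gene by group (mean ± SD, n = 3, log axis), from the deposited FPKM on the left and with the longest coding transcript of GENCODE M21 as length on the right. Vgll4 moves from the fifth place (12.4 in control) to the first (90.4), and Tead1 and Tead2 change places, while the other genes keep their order.

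Over the 9 libraries, the genes nearest to each member were found among 10401 genes with at least 5 CPM, by the root mean square distance between log2 CPM values centred on each gene's mean. Nearest to Yap1 were Hdac2, a histone deacetylase (distance 0.024), and Dars, the aspartyl-tRNA synthetase (0.025), where Yap1 itself varied by 0.21 around its mean. Nearest to Tead4 were Dnajb9, an endoplasmic reticulum chaperone (0.062), and Fndc3b (0.070), against 0.41 for Tead4. For Vgll4 they were Lonp2, a peroxisomal protease (0.040), and Fyco1, an autophagy adaptor (0.042), for Wwtr1 Bpnt1 (0.035) and Hnrnpf (0.041), and for Tead2 Mif (0.039) and Uqcrq, a complex III subunit (0.041). Tead1 had Serinc3 (0.027) and Rrp15 (0.029), and Tead3 had Mrpl4 (0.037) and Vps18 (0.039). The distances are descriptions, and all genes share the same 9 libraries.

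The kinases upstream moved in both directions. All genes named from the lists below passed edgeR's adjusted threshold in both comparisons with control. For Ankrd1 that call is no support, for the reason given with the targets. In the Hippo cascade list 10 of 18 genes were called higher and 7 lower with each hairpin, and the median log2 fold change was 0.22 with both, where the median of all tested genes was -0.01. The shares called, 94.4% with either, stand beside 65% and 69% of all tested genes. Lats2, a kinase of YAP and also a YAP target, went from 42.0 ± 0.32 CPM to 73.0 ± 1.48 with shAD4-1 and 73.3 ± 4.21 with shAD4-2 (SD, n = 3). Its paralogue Lats1 rose 1.41 and 1.54-fold, and the MST kinases Stk3 and Stk4 rose 1.40 and 1.17-fold and 1.33 and 1.39-fold. Sav1, the MST scaffold, fell from 112 ± 1.24 to 72.3 ± 0.81 and 77.4 ± 3.69 CPM, and Taok2, a kinase of MST, from 90.1 ± 3.09 to 54.6 ± 3.25 and 58.1 ± 3.41 CPM. In STRIPAK, a phosphatase complex that opposes MST, 6 of 12 genes were higher with each hairpin, and 5 and 4 were lower (91.7% and 83.3% called). Its scaffold Strn rose 1.43 and 1.47-fold and Sike1 1.42 and 1.35-fold.

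Of 16 genes listed for YAP and TAZ binding and retention, 8 were higher and 5 lower with shAD4-1. With shAD4-2, 10 were higher and 5 lower (medians 0.12 and 0.18). The shares called were 81.2% and 93.8%, beside the same 65% and 69%. Ajuba, in that list though it is a LIM protein that inhibits LATS, rose 1.83 and 2.38-fold. Ywhag, a 14-3-3 protein, rose 1.49 and 1.52-fold, and the phosphatase Ptpn14, which holds YAP in the cytoplasm, fell from 440 ± 18.2 CPM to 309.6 ± 1.54 and 309.8 ± 3.20. Of 10 turnover genes 3 were higher with each hairpin and 5 and 3 lower (medians -0.04 and 0.02). The shares called were 80% and 60%, where 65% and 69% of all tested genes were called. Cul1, the cullin of the SCF ubiquitin ligase, rose 1.40 and 1.56-fold, and its partners Skp1, to 0.808 and 0.813 of control, and Btrc, which recognises phosphorylated YAP, to 0.741 and 0.822, fell.

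Of 13 tested genes listed as cofactors of TEADs, 9 rose with each hairpin, and 4 and 3 fell (medians 0.34 and 0.44). The list held 15 genes, and Vgll1 and Vgll2 are not analysed here. Tcf4, called lower with both hairpins, is among the 13, and whether it works with TEADs was not checked. Of all tested genes 32.7% and 34.2% were called higher and 32.3% and 34.8% lower. Vgll3, a vestigial-like relative of Vgll4 that binds TEADs, went the other way from Vgll4, from 176 ± 6.71 CPM in control to 377 ± 21.1 with shAD4-1 and 355 ± 35.9 with shAD4-2 (2.14 and 2.01-fold; edgeR log2 fold changes 1.10 and 1.01). Irf2bp2, a corepressor that binds vestigial-like proteins, rose 1.61 and 1.41-fold and the coactivator Ncoa2 1.35 and 1.47-fold.

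Among 20 tested targets of YAP, TAZ and TEADs (of 24 listed), 11 were higher and 5 lower with shAD4-1, and 12 higher and 8 lower with shAD4-2 (medians 0.26 and 0.27). The shares called, 80% and 100%, stand beside 65% and 69% of all tested genes. Called with both in the same direction were 10 higher and 5 lower of the 20, where 28.1% and 27.6% of all tested genes were. Ccn1, a secreted matricellular protein, stood at 31.5 ± 1.92 CPM in control, 142 ± 4.22 with shAD4-1 and 93.2 ± 5.62 with shAD4-2, and its relative Ccn2 at 1.76 ± 0.55, 3.78 ± 0.05 and 5.61 ± 0.83 CPM. Crim1, a transmembrane protein that binds bone morphogenetic proteins, rose 2.53 and 2.26-fold. Ptpn14, named above and also listed as a target, was among the 5 called lower with both, at 0.704 of control with either hairpin. Ankrd1, a nuclear ankyrin-repeat protein, had no read in the control libraries, 46 with shAD4-1 and 40 with shAD4-2, at least 14.4-fold and 13.8-fold higher against a floor of 3 reads over the control group. These are few reads in libraries of this depth. With no control read, Ankrd1 passed the filter on low counts only through the hairpin libraries, so its call is no support. It is included in the counts and medians of the targets above, and without it the medians were 0.23 and 0.22. Lats2, Ajuba, Ptpn14, Amotl2 and Wwc1 stand in more than 1 of these lists.

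**Figure D5:**
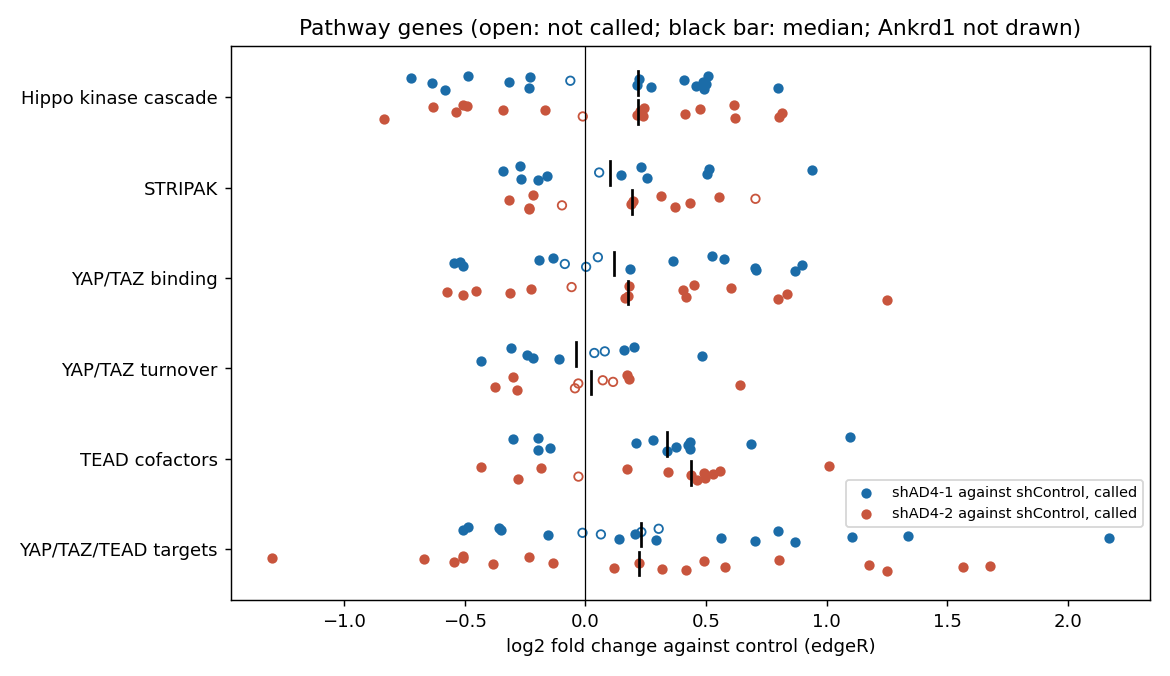
Log2 fold changes against control of the tested genes in 6 pathway lists (filled points called by edgeR, open points not, black bars medians). Ankrd1, with no control read, is neither drawn nor included in the medians, which are 0.23 and 0.22 for the targets. Each list holds genes on both sides of 0, from -1.30 to 2.17 among the targets, and its median lies within 0.44 of 0.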

How the data were processed

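Total RNA of 9 B16 libraries was sequenced (VAHTS Universal V6 kit, per the labels' protocols). Per the submitters' processing notes fastp, HISAT2 and HTSeq were used with build GRCm39; their versions and the use of strand: not given in the sources used here. The authors deposited whole-number read counts per gene, and FPKM that follow from those counts with 1 length per gene (within 0.001 bases of a whole number). Columns KD1 and KD2 were matched to shAD4-1 and shAD4-2 by hairpin and replicate number.

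Counts were filtered with filterByExpr, scaled with TMM and tested with glmQLFit and glmQLFTest in edgeR 4.0.16 (R 4.3.3), with dispersions from all 9 libraries and Benjamini-Hochberg adjustment over 13807 genes at 0.05. The kept genes held 99.968% of reads. SE was taken as absolute log2 fold change over root F, and 95% intervals use t quantiles. CPM are TMM-scaled; FPKM use the column total. TMM factors were 1.02 to 1.03 in control and 0.985 to 0.988 in hairpin libraries. Sums and ratios were compared with exact permutation tests, two-sided. The design text calls the replicates biological without saying whether they were separate cultures, so p-values measure the spread between these libraries, which may be partly technical. The script was tested on simulated data in which only a small part of the genes changed. Against control 65% and 69% of tested genes were called here, and the simulation did not cover scaling in that setting.

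Members and gene lists were chosen with earlier results of these data known. Named were all 7 members, from each pathway list up to 3 genes with the smallest larger adjusted p over both comparisons with control, with Ccn1, Ccn2, Ankrd1, Lats1, Lats2, Stk3, Stk4 and Vgll3 always, and the 2 nearest profiles of each member. Alternatives tried were DESeq2 1.42.0, RLE or upper-quartile scaling, other filters, only the groups compared, a replicate block, each library left out, limma 3.58.1 on log2 FPKM and, added after the data were seen, another gene length. Antisense or overlapping genes cannot be told apart where strand was not used. One gene that the naming rule picks is not reported here.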

Additional observations from a re-analysis of the deposited data

Results flagged for a closer look

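For 3 genes the effects of the 2 hairpins differed by the test of the difference itself (edgeR, shAD4-2 against shAD4-1): Wwtr1 (-0.18), Tead1 (-0.18) and Vgll4 (-0.17), as log2 differences with adjusted p of 0.0109, 0.00142 and 0.00523. All 3 shAD4-2 libraries lay below all 3 shAD4-1 libraries for each. In that comparison 27.4% of all tested genes were called, and in 44.5% the libraries of the 2 groups did not overlap. The call of Wwtr1 was lost without shAD4-1 replicate 3 (edgeR adjusted p = 0.0541) or without shAD4-2 replicate 2 (0.0748). With shAD4-2 the rise of Wwtr1 was smaller, the fall of Vgll4 was larger and Tead1 was not called.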

How the results depend on the processing

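Over 19 alternatives the calls of Yap1, Tead2, Tead4 and Vgll4 against control, and of Wwtr1 and Tead1 with shAD4-1, kept their direction and stayed past the threshold. Between 6 and 7 of the 7 genes were called with shAD4-1, 5 and 6 with shAD4-2, and 2 to 4 between the hairpins. Over all tested genes every count stayed within 1.5 times its value. With a replicate block the counts were 6, 5 and 3 of the 7 genes and 8833, 9375 and 3511 of all tested genes, and no call of the 7 genes changed; same-numbered libraries did not deviate together (correlations -0.12 to 0.0022), so the number was not taken as a pairing.

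For the difference of Yap1 between hairpins, 0.12 with RLE scaling and 0.12 with DESeq2 passed, as did 0.11 with only the libraries of the 2 groups, and leaving out each library gave 0.097 to 0.12. Tead3 passed with shAD4-2 under upper-quartile scaling (-0.21). In limma Tead3 passed with shAD4-1, at -0.17 for log2(FPKM + 1), -0.20 for log2(FPKM + 0.1) and -0.17 with a minimum of 1 FPKM in 3 libraries, and with shAD4-2 at -0.19, -0.23 and -0.19, while Wwtr1 with shAD4-2 did not, at 0.099, 0.10 and 0.099. The difference of Wwtr1 between hairpins ran from -0.23 to -0.15 when each library was left out. Differences close to 0 changed sign without being called: Tead2 between hairpins with RLE (0.0067), DESeq2 (0.0067), only the 2 groups (0.00077) and limma (0.0011, 0.0011 and 0.0011), and, leaving out each library, Tead2 (-0.033 to 0.042) and Tead3 (-0.077 to 0.022) between hairpins and Tead1 with shAD4-2 (-0.021 to 0.013). The cause was not tested.

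With the longest coding transcript as length, levels and ratios moved while their order between groups held. For control, shAD4-1 and shAD4-2 in that order, the summed TEAD level was 46.02, 52.4 and 49.4, the share of Tead1 47.0, 44.6 and 41.8%, of Tead2 35.6, 36.7 and 39.0%, of Tead3 10.5, 8.00 and 8.33% and of Tead4 6.96, 10.8 and 10.9%. The ratio of Yap1 and Wwtr1 to TEADs was 1.45, 1.56 and 1.66, that of Yap1 to Vgll4 0.44, 0.74 and 0.90, and that of Yap1 to Wwtr1 1.47 and 1.5 in control and shAD4-1. Depth limits Tead3 and Tead4 the most, with 308 to 655 reads per library.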
